A study of Mus musculus with 8 samples.

Results

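Kinesins are motor proteins that walk along or take apart microtubules, and the 39 genes described here are the protein-coding genes of the mouse GENCODE M21 annotation whose names begin with Kif and a digit, out of 21951 protein-coding genes in all. Peaks of RNA bound by the methyl-CpG-binding domain proteins MBD5 and MBD6 were assigned to a kinesin when the midpoint of the peak lay in the gene body on the same strand. The name rule also took in Kif1bp, a kinesin-binding protein that is no motor, and it left out 5 kinesins with other names. The assay was CLIP-seq, in which RNA crosslinked to a protein is pulled down with it and sequenced, and the cells were mouse embryonic stem (mES) cells. Wild-type mES cells received the human coding sequence of MBD5 or of MBD6 with a Flag tag by lentivirus, under hygromycin selection, and overexpressed it stably. There were 2 Flag-MBD5 libraries and 2 Flag-MBD6 libraries with peak lists, and the digested inputs (2 per protein) were not used as samples of their own. An immunoprecipitation from cells without the tag was not analysed here, and all peaks therefore describe an overexpressed, tagged human protein.

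Most kinesins carry the motor domain near the amino terminus, followed by a stalk of heptad repeats, in which hydrophobic residues recur at fixed places and wind pairs of chains into a coiled coil, and by a tail that binds cargo or partners. The kinesin-13 proteins carry the motor in the middle of the chain and depolymerise microtubules. A set of mitotic kinesins builds the spindle, aligns chromosomes or acts in cytokinesis, and was taken here as 12 genes (Kif2b, Kif2c, Kif4, Kif11, Kif14, Kif15, Kif18a, Kif18b, Kif20a, Kif20b, Kif22 and Kif23). The other 27 genes mostly serve transport along the cytoskeleton, cilia and signalling.

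The peak lists held 5362 and 5388 peaks for MBD5 and 9218 and 9587 for MBD6, from an estimated 478790, 500143, 983918 and 1111742 reads. The MBD6 libraries were thus 2.14 times as deep as the MBD5 libraries, and depth and protein cannot be told apart in differences of peak number. Sampling noise exceeded the difference between the libraries of a protein (chi-square per degree of freedom of 0.496 for MBD5 and 0.414 for MBD6), so each protein was counted as 1 sample. Values of both libraries are given without an SD, no test between the proteins was made, and intervals cover counting error only. Of 12 stem cell markers, 10 had a peak in some library, against 19.4% of all protein-coding genes, while Lin28a and Utf1 had none. A peak found in both libraries of a protein was present in 3 of the markers for MBD5 and in 6 for MBD6. Over all protein-coding genes these shares were 7.8% and 13.8%. The labels give embryos as the tissue and mESC as the cell line.

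RNA was digested with RNase T1, which cuts after G, so the start of a peak marks the end of a cut fragment, and the first 30 nt lie where the fragment does. A site is a set of overlapping peaks of the 4 libraries, and 78 sites were found in 23 kinesin genes. The base before the start was G at 61 of the 68 sites whose first 30 nt lay in 1 exon (89.7%), C at 4 and T at 3. The sequences below are the starts of the sites with the most reads among those with peaks in all 4 libraries, and they show the codons whose share is described further on. Single starts differ in makeup, and the A-rich average given there does not hold for each of them. Capitals mark in-frame codons for glutamate, GAA or GAG, and for lysine, AAA or AAG. They are transcript sequences of the GENCODE annotation on build mm10, and each lies in a coding exon. Kif20b site 2 began at chr19:34938401-34938430 on the plus strand (exon 13 of 32) and Kif20b site 6 at chr19:34950769-34950798 on the plus strand (exon 19). Kif2c site 1 began at chr4:117172340-117172369 on the minus strand (exon 7 of 20), Kif23 site 5 at chr9:61925625-61925654 on the minus strand (exon 15 of 23) and Kif5c site 3 at chr2:49730241-49730270 on the plus strand (exon 14 of 26).
Kif20b site 2: atgtgcttGAAaatGAAgatttggttGAGg
Kif20b site 6: AAGGAAtctgccatcttaAAActgGAAgca
Kif2c site 1: tatcgtgAAGGAGatgGAGAAAatgAAGaa
Kif23 site 5: acaattctctatcaaatAAAGAAaactacg
Kif5c site 3: tcaattacgaccagAAGtcacaaGAAgtgg

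The next sequences start the MBD6 regions with the highest fold enrichment among those without any MBD5 peak. Kif15 site 10 began at chr9:123013949-123013978 (exon 31 of 35), Kif15 site 4 at chr9:122987879-122987908 (exon 14) and Kif20b site 3 at chr19:34940097-34940126 (exon 15 of 32), all on the plus strand and all coding. Glutamate or lysine codons were found in both sets. Such codons make up 19.7% to 20.4% of the whole coding sequence of the bound kinesins, weighted by peaks, so their presence alone sets neither apart.
Kif15 site 10: tcatccagacagtcaacagctgAAGaatga
Kif20b site 3: acacttcttcatGAAcgaGAGatattaGAA
Kif15 site 4: atgGAAaaccattccctcaggGAAGAGaat

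Kinesin genes held CLIP regions more often than protein-coding genes in general. A reproducible region, a merged peak found in both libraries of a protein, was present for MBD5 in 11 of the 39 genes (28.2%, 95% Wilson interval 16.5% to 43.8%), where 7.8% of all protein-coding genes had one. For MBD6 the count was 18 of 39 (46.2%, 31.6% to 61.4%), against 13.8% of all protein-coding genes. A peak in at least 1 library was found in 23 of 39 (59.0%), against 19.4% of all protein-coding genes. Kinesins are long genes, so the 5551 protein-coding genes with a coding sequence of 1854 to 6339 bases, the range of the members, were counted as well. Of these, 14.3% had an MBD5 region, 25.5% an MBD6 region and 33.8% a peak. The members' shares were above these values too, though lengths were not matched within the range. Transcript abundance was not measured in the data used here, and its part in these shares was not tested. In cells measured in bulk, fewer cells that transcribe a gene and less RNA per cell cannot be told apart.

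The kinesins held 27 and 29 peaks in the MBD5 libraries and 63 and 69 in the MBD6 libraries. These were 0.504% and 0.538% of all MBD5 peaks and 0.683% and 0.720% of all MBD6 peaks. The Wilson intervals of these shares overlapped, from 0.346% to 0.772% for MBD5 and from 0.535% to 0.910% for MBD6. The ratio of kinesin peaks, MBD6 over MBD5, was 2.36 (95% counting interval 1.51 to 3.67), next to 1.75 for all peaks and 2.14 for the estimated reads. With the best 5362 peaks of each library, MBD6 kept 37 kinesin peaks per library in place of 66, and the ratio was 1.32. Kinesin peaks had a median of 11 and 14 reads at the summit in MBD5 and 19 and 20 in MBD6, where all peaks had 16, 16, 20 and 21. Their median fold enrichment over the local background was 9.24, 10.7, 11.8 and 11.3 in the same order. Fold enrichment has a constant added to reads and background, so at a low background it rises with the depth of the library. Fold values are therefore not compared between the proteins. The local background had the lowest value of its strand at 74.1% and 72.4% of the MBD5 peaks and 79.4% and 79.7% of the MBD6 peaks in kinesins. Over all peaks these shares were 38.8%, 38.4%, 59.4% and 57.6%.

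The mitotic kinesins were the more often bound class. Of the 12 mitotic genes, 8 had an MBD5 region, 9 an MBD6 region and 11 a peak, while of the other 27 the counts were 3, 9 and 12. Scaled to coding length, mitotic kinesins had 0.366 and 0.419 peaks per kb in the MBD5 libraries and 0.942 and 1.05 in the MBD6 libraries. The other kinesins had 0.131 in both MBD5 libraries and 0.273 and 0.293 in the MBD6 libraries, close to the 0.13 (both MBD5 libraries), 0.227 and 0.237 of all protein-coding genes. This average covers unlike genes. The 3 kinesin-1 genes held 10 and 11 of the 13 MBD5 peaks of this class per library, and 15 of its 27 and 29 MBD6 peaks. Their density was 1.13 and 1.24 per kb with MBD5 and 1.70 in both MBD6 libraries, above that of the mitotic kinesins. The MBD6 over MBD5 ratio of peaks was 2.53 (1.39 to 4.61) in the mitotic and 2.15 (1.12 to 4.16) in the other kinesins, and these counting intervals overlapped. The part of transcript abundance in this difference was not tested.

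**Figure D1:**
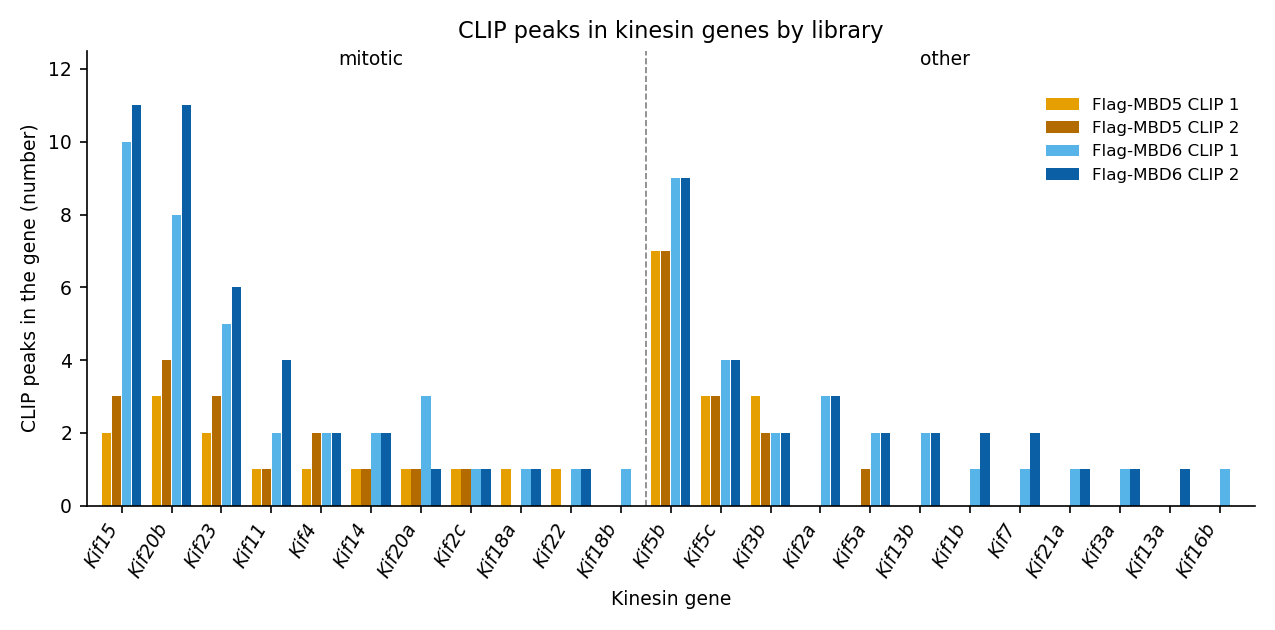
Bars give the number of CLIP peaks (vertical axis) in each kinesin gene with any peak (horizontal axis) for the 4 libraries, mitotic genes left of the dashed line. Kif15, Kif20b and Kif5b carry the tallest bars, with up to 11 peaks in an MBD6 library, and bars of the MBD5 libraries are lower than those of the MBD6 libraries in most genes.

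Binding was uneven between genes: Kif15, Kif20b, Kif5b and Kif23 together held 36 of the 78 sites (46.2%). Among the cytokinesis motors of the kinesin-6 family, all 3 genes had regions of both proteins. Kif20b, a midbody motor, had 3 and 4 peaks in the MBD5 libraries and 8 and 11 in the MBD6 libraries. Kif23, the motor subunit of the centralspindlin complex, had 2, 3, 5 and 6 peaks in the same order. Kif20a, which acts with the chromosomal passenger complex late in division, had 1, 1, 3 and 1. The family had 0.553 and 0.737 peaks per coding kb with MBD5 and 1.47 and 1.66 with MBD6.

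Spindle motors varied more. Kif15, a kinesin-12 that helps to keep the spindle bipolar, had 2 and 3 MBD5 peaks and 10 and 11 MBD6 peaks. Only 1 of its regions was reproducible for MBD5 and 10 were for MBD6. Kif11, the kinesin-5 that pushes spindle poles apart, had 1, 1, 2 and 4 peaks in the 4 libraries. The microtubule depolymerase Kif2c had 1 peak in each library, and the related Kif2a had 3 peaks in each MBD6 library and none in the MBD5 libraries. Kif2b, of the same family, had no peak in any library.

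The remaining mitotic genes had few sites. Kif4, a chromokinesin that works with Prc1 at the midzone, had 1, 2, 2 and 2 peaks, and Kif14, a cytokinesis motor that binds citron kinase, had 1, 1, 2 and 2. Kif18a, which dampens chromosome movements, had 1, 0, 1 and 1, so it had an MBD6 region only. Kif22, a chromokinesin, had 1, 0, 1 and 1 peaks, of which the MBD6 peaks lay at different sites, and Kif18b had a single peak in 1 MBD6 library. Neither of these had a reproducible region.

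Among transport kinesins, the kinesin-1 heavy chains had the most peaks. Kif5b, the heavy chain found in most tissues, had 7 peaks in each MBD5 library and 9 in each MBD6 library, which is 2.42 and 3.11 per coding kb on average and the highest density of any of the 39 genes for either protein. Kif5c, known mainly from neurons, had 3, 3, 4 and 4 peaks, and Kif5a, also known mainly from neurons, had 0, 1, 2 and 2. In kinesin-2, the intraflagellar transport motor, Kif3b had 3, 2, 2 and 2 peaks and its partner Kif3a had 0, 0, 1 and 1, with none in Kif3c or Kif17. Regions of MBD6 alone were found in Kif1b, Kif13b and Kif21a, of which Kif1b and Kif13b carry membrane cargo and Kif21a limits microtubule growth.

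Peaks without a reproducible region were found in Kif7, a regulator of Hedgehog signalling in the cilium (0, 0, 1 and 2 peaks), and in the cargo motors Kif13a (0, 0, 0 and 1) and Kif16b (0, 0, 1 and 0). No peak was found in 16 members: Kif1a, Kif1c, Kif1bp, Kif2b, Kif3c, Kif6, Kif9, Kif12, Kif17, Kif19a, Kif21b, Kif24, Kif26a, Kif26b, Kif27 and Kif28. A gene without a peak was not detectable at this depth, which does not show that its RNA was unbound.

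Of the 78 sites, 20 had a peak in all 4 libraries, 22 in both MBD6 libraries and no MBD5 library, and 0 in both MBD5 libraries and no MBD6 library. A further 22 were found in 1 library, and 2 sites had no MBD6 peak, 1 in Kif3b and 1 in Kif4. The sites with MBD6 peaks only had fewer reads: a median of 16.75 MBD6 reads (9.5 to 37) against 36.5 (14 to 84.5) at the sites of all 4 libraries. Divided by the depth ratio of 2.14, the reads of the 22 sites came to 4.44 to 17.3 with a median of 7.82. The lowest read number at which a kinesin peak was listed for MBD5 was 6, and 19 of the 22 scaled values were at or above it. A peak is listed by its score against the background and not by reads alone, so this comparison gives no detection limit.

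The strongest of the shared sites was Kif20b site 2, whose start is printed above and lies at codon 531 of 1774. It had 28 and 34 summit reads in the MBD5 libraries and 81 and 88 in the MBD6 libraries, with a fold enrichment of 20.7, 18.8, 50.9 and 52.7. Per 1000000 estimated reads of the library (RPM) this was 58.5, 68.0, 82.3 and 79.2, so both MBD6 values were above both MBD5 values after scaling. Kif20b site 6, at codon 1149, had 9, 12, 34 and 52 reads and a fold enrichment of 7.70, 9.91, 21.0 and 31.4. Its RPM were 18.8, 24.0, 34.6 and 46.8, and its log2 ratio of MBD6 over MBD5 of 0.93 was the highest of the 20 sites.

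Kif20a site 3 lay at the other end. With 32, 34, 44 and 47 reads and a fold enrichment of 25.4, 24.5, 27.9 and 28.4, it had 66.8 and 68.0 RPM in MBD5 and 44.7 and 42.3 in MBD6. Its log2 ratio of -0.63 was the lowest of the 20, and the values of the proteins did not overlap. The ratio still lay within the quartiles (-0.69 and 0.05) of all sites of the series with a peak in every library. The site starts in coding exon 14 of 19, at codon 583 of 887.

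Kif5b held 4 of the 10 sites with the most reads. Site 3, at codon 466 of 963, had 22, 27, 60 and 66 reads with a fold enrichment of 18.3, 22.1, 40.0 and 42.1. Site 5, at codon 596, had 23, 19, 49 and 65 reads with a fold enrichment of 17.2, 15.8, 32.8 and 41.4. On the RPM scale, all values of both sites lay between 38.0 and 61.0, with the MBD6 values above the MBD5 values at each site. Site 9, at codon 885, had 19, 22, 49 and 38 reads with 14.4, 16.2, 25.3 and 24.5 as fold enrichment. Site 8, at codon 775, had 19, 25, 35 and 38 reads with 14.4, 20.5, 23.6 and 24.5. After scaling, MBD5 was the higher at site 8, with 39.7 and 50.0 RPM against 35.6 and 34.2 for MBD6, and the values of the proteins overlapped at site 9. The log2 ratio of site 8, -0.36, was near the median of -0.34 over all sites of the series with a peak in every library.

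Further strong sites were found in 3 genes whose starts are printed above. Kif2c site 1 had 21, 24, 53 and 51 reads (fold enrichment 17.5, 19.8, 35.4 and 32.7), and its 43.9, 48.0, 53.9 and 45.9 RPM overlapped between the proteins. Kif23 site 5 had 22, 15, 49 and 59 reads (16.5, 12.6, 32.8 and 37.7). Kif5c site 3 had 11, 17, 37 and 42 reads (9.24, 13.7, 23.6 and 25.4). For both, each MBD6 value in RPM exceeded each MBD5 value.

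Among MBD6 regions without an MBD5 peak, the highest fold enrichment was at Kif15 site 10, with 37 reads in each MBD6 library (23.6 and 22.5). Kif20b site 3 had 32 and 33 reads (20.5 and 20.1), and Kif15 site 4 had 23 and 28 reads (13.8 and 15.3). Scaled to the MBD5 depth these means were 17.3, 15.2 and 11.9 reads. The peak lists give no read number where no peak was listed, so the MBD5 level at these sites is unknown.

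**Figure D2:**
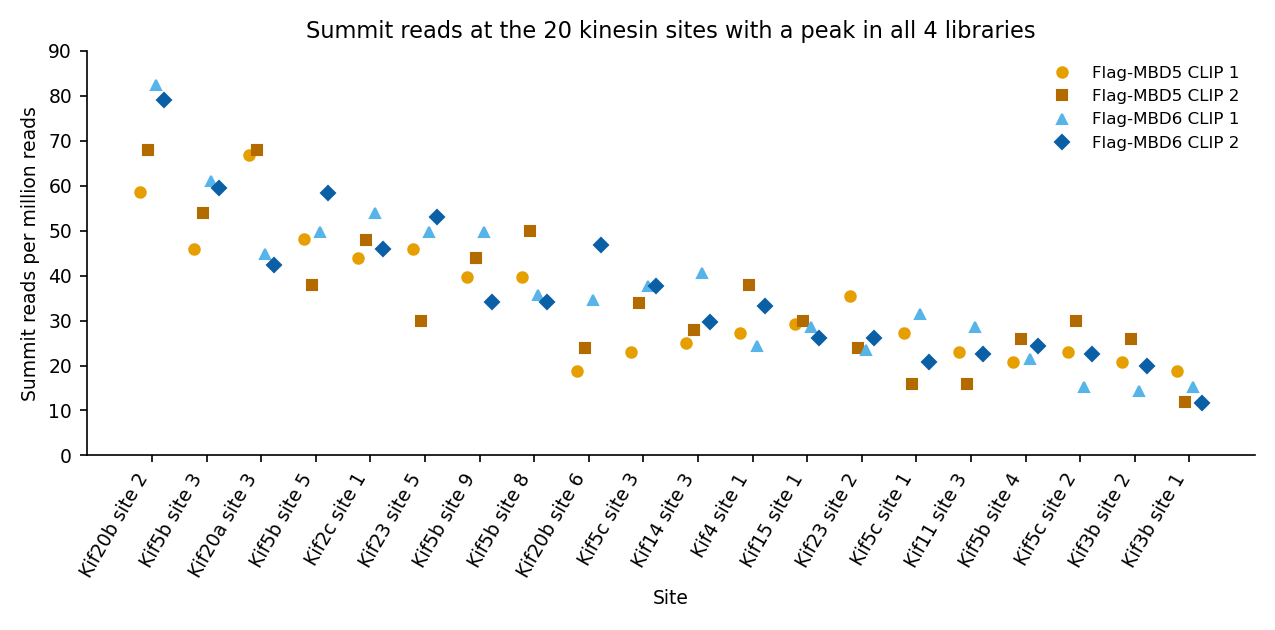
Points give the summit reads scaled to library depth (vertical axis, RPM) at each of the 20 kinesin sites with a peak in all 4 libraries (horizontal axis, ordered by mean reads), by library. Which protein is higher differs from site to site, with Kif20b site 6 higher in both MBD6 libraries and Kif20a site 3 higher in both MBD5 libraries.

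Over the 20 shared sites the log2 ratio of RPM, MBD6 over MBD5, had a median of 0.06 and ran from -0.63 to 0.93, with 11 sites above 0. Over all 3566 sites of the series with a peak in all 4 libraries the median was -0.34 (quartiles -0.69 and 0.05), and 27.5% were above 0. Over the kinesin sites, chi-square per degree of freedom was 0.561 between the MBD5 libraries and 0.850 between the MBD6 libraries. Between libraries of different proteins it was 0.997 to 1.44. The values between proteins were thus above those between libraries of a protein, which lay below the value that Poisson sampling would give. With 20 sites of few reads this does not decide whether the proteins differ there, and no difference is read from them. Over all shared sites the comparison between libraries of different proteins gave 2.38 to 2.64. The mitotic sites had a median log2 ratio of 0.24 (10 sites) and the other sites -0.02 (10 sites), and this difference was not tested.

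Nearly all kinesin peaks started in coding sequence. Because reads had been extended to 150 bp without splicing, the class was read 15 nt inside the start of a peak, where it was coding for 27 of 27 and 29 of 29 MBD5 peaks and for 62 of 63 and 67 of 69 MBD6 peaks. None of these positions lay in an untranslated or other exon, and 3 MBD6 peaks lay outside annotated exons. Over all protein-coding genes, 89.5%, 89.9%, 89.2% and 89.1% of the peaks were coding at this position. At the midpoint of the peak, which the extension often carries past the exon border, the kinesin shares were 66.7%, 55.2%, 66.7% and 63.8%. The 2 sites of Kif1b lay in coding sequence of another transcript than the longest one and were left out of the codon-level values.

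Along the coding sequence, kinesin peaks were sparse near the start. Only 7.41% and 6.90% of the MBD5 peaks and 9.84% and 9.23% of the MBD6 peaks lay in the first 25% of the coding sequence, where all genes had 26.5% to 28.5%. Between 50% and 75% of the length, the kinesin shares were 44.4%, 48.3%, 37.7% and 38.5%, against 24.0% to 24.8% over all genes. Counted by sites, 7 of 74 lay in the first 25%, 22 in the next, 29 between 50% and 75% and 16 in the last. Mitotic and other kinesins had the same order, with 4, 14, 16 and 10 sites in the former and 3, 8, 13 and 6 in the latter. Sites of 1 gene share its transcript and are not independent.

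**Figure D3:**
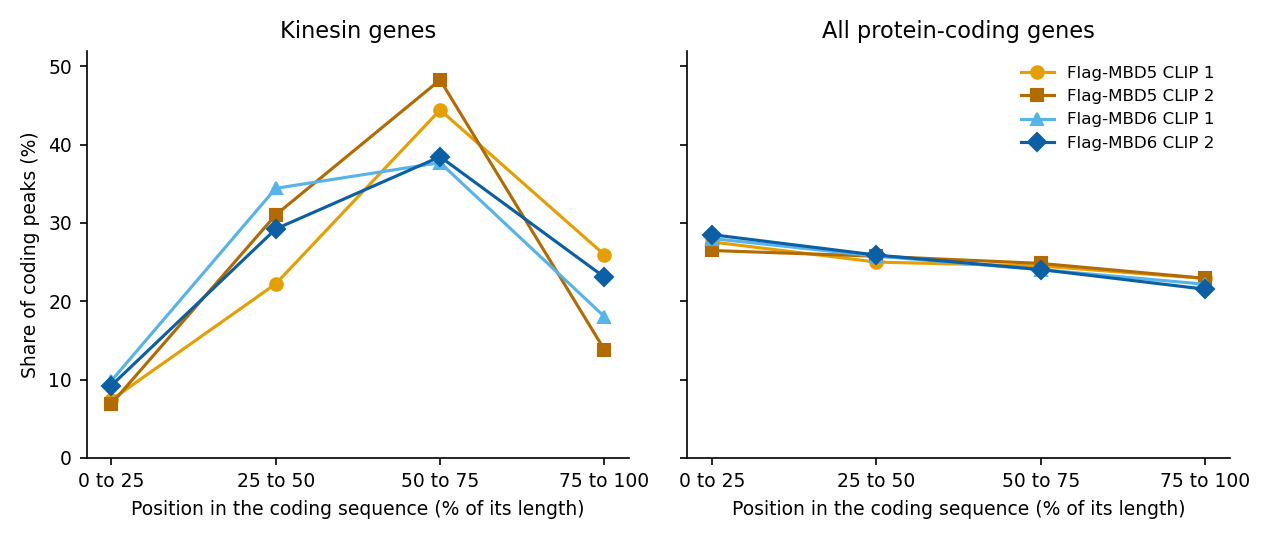
Lines give the share of coding peaks (vertical axis, %) in each 25% stretch of the coding sequence (horizontal axis, start to end) by library, for kinesin genes on the left and all protein-coding genes on the right. The kinesin lines are lowest in the first stretch, under 10%, and peak between 50% and 75%, while the lines of all genes stay between 21.5% and 28.5%.

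The kinesin-1 genes showed this most plainly, since 0 of their 15 sites lay in the first 25%. The sites of Kif5b started at codons 346, 440, 466, 545, 596, 657, 755, 775 and 885 of 963, and all lay in exons 11 to 24 of 26. In Kif5c they started at codons 336, 381, 500 and 649 of 956, and in Kif5a at codons 327 and 754 of 1027. In this family the motor domain lies at the amino terminus and the stalk follows it. Kif15 was bound along much of its length, from codon 223 to codon 1291 of 1387. Kif20b sites ran from codon 391 to codon 1492 of 1774, and Kif23 sites from codon 344 to codon 577 of 953. Sites in the first 25% of other genes included Kif13b site 1 at codon 137 of 1847, Kif2a site 1 at codon 165 of 743 and Kif4 site 1 at codon 243 of 1231.

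To relate sites to the coiled coil, heptad segments were predicted from the translated coding sequence by a simple rule: windows of 28 residues without proline and with at most 1 glycine, in which at least 7 of the 8 core heptad positions were hydrophobic and at least 10 of the 20 others charged or glutamine. The rule is strict. It covered 89.6% of tropomyosin Tpm1 but only 15.6% of the myosin heavy chain Myh9, and 0% of actin Actb. In the kinesins it covered 5.41% of the residues, against 1.73% over all protein-coding genes, with the highest shares in Kif5b (16.9%), Kif20b (15.3%), Kif5c (14.5%), Kif5a (14.4%) and Kif27 (13.3%). A looser rule with 6 of 8 core positions covered 17.2% of the kinesin residues, 5.14% over all protein-coding genes and 44.1% of Myh9. It also covered 9.6% of Actb and 14.9% of the tubulin Tubb5, but 0% of Gapdh, Tuba1a, Pgk1 and Eno1. Kif27 and Kif7 (11.4%) had no reproducible region, so a high heptad share did not always go along with one.

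By the strict rule, 22.2% and 17.2% of the kinesin coding peaks of MBD5 and 13.1% and 12.3% of those of MBD6 started in a heptad segment. The segments made up 10.4%, 10.8%, 9.33% and 9.85% of the coding sequence of the same genes, weighted by their peaks, and all these values lay inside or just below the Wilson intervals of the peaks (10.6% to 40.8%, 7.60% to 34.5%, 6.80% to 23.8% and 6.37% to 22.5%). By the looser rule the shares were 48.1%, 51.7%, 41.0% and 44.6% against 30.6%, 32.9%, 29.5% and 29.9%. Over all protein-coding genes the looser rule gave 13.6%, 13.7%, 13.9% and 14.2% of peaks against 10.2%, 10.4%, 10.0% and 10.2% of sequence. Peaks above the share of sequence were thus not particular to kinesins under this rule. Taken by coding exon, 44.4%, 44.8%, 31.1% and 32.3% of the peaks started in an exon with at least 14 residues in a heptad segment. Such exons made up 20.7%, 21.2%, 18.4% and 19.2% of the same genes' coding sequence. Over all protein-coding genes the exon shares were 8.72%, 8.75%, 8.62% and 8.73% of peaks against 7.38%, 7.44%, 7.20% and 7.30% of sequence.

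By heptad exon, the peaks of the kinesins outside mitosis lay further above their share of sequence than those of the mitotic kinesins, though the difference between the classes was not tested. In the former, peaks started in a heptad exon in 10 of 13 and 9 of 13 cases for MBD5 and in 13 of 25 and 13 of 26 for MBD6, where 29.1%, 29.2%, 23.6% and 22.5% of the sequence lay in such exons. For mitotic kinesins the counts were 2 of 14, 4 of 16, 6 of 36 and 8 of 39, against 12.9%, 14.7%, 14.8% and 16.9% of the sequence. Few genes lie behind the MBD5 counts of the other kinesins. Of the 13 peaks in each MBD5 library, 7 lay in Kif5b and 3 in Kif5c, with 3 and 2 in Kif3b. Peaks of the same gene are not independent. Under the looser rule, peaks of the mitotic kinesins were above their share of sequence as well, with 5 of 14, 5 of 16, 12 of 36 and 15 of 39 against 22.1%, 25.8%, 26.4% and 27.3%. Counted by sites, heptad exons of the other kinesins held 15 of 30, where an even spread within each gene would place 6.62, and without Kif5b they held 9 of 21, against 3.49. In the mitotic kinesins they held 7 of 44 (15.9%), where an even spread would place 14.8%. A site in a heptad exon can lie outside its segment. By the strict segments themselves, the counts were 7 of 30 sites in the other and 2 of 44 in the mitotic kinesins. In Kif5b alone, 6 of 9 sites lay in the 7 heptad exons, at 5.95 sites per kb against 1.59 in the other coding exons. Kif5c, of the same family, had 1 of 4 sites there, at 1.34 per kb against 1.41, and Kif3a, Kif13a and Kif13b had none. All 3 Kif3b sites lay in heptad exons, while Kif20b had 3 of 10 and Kif15 had 2 of 11. Kif23, with 6 sites, and Kif20a, with 3, had no heptad exon at all.

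**Figure D4:**
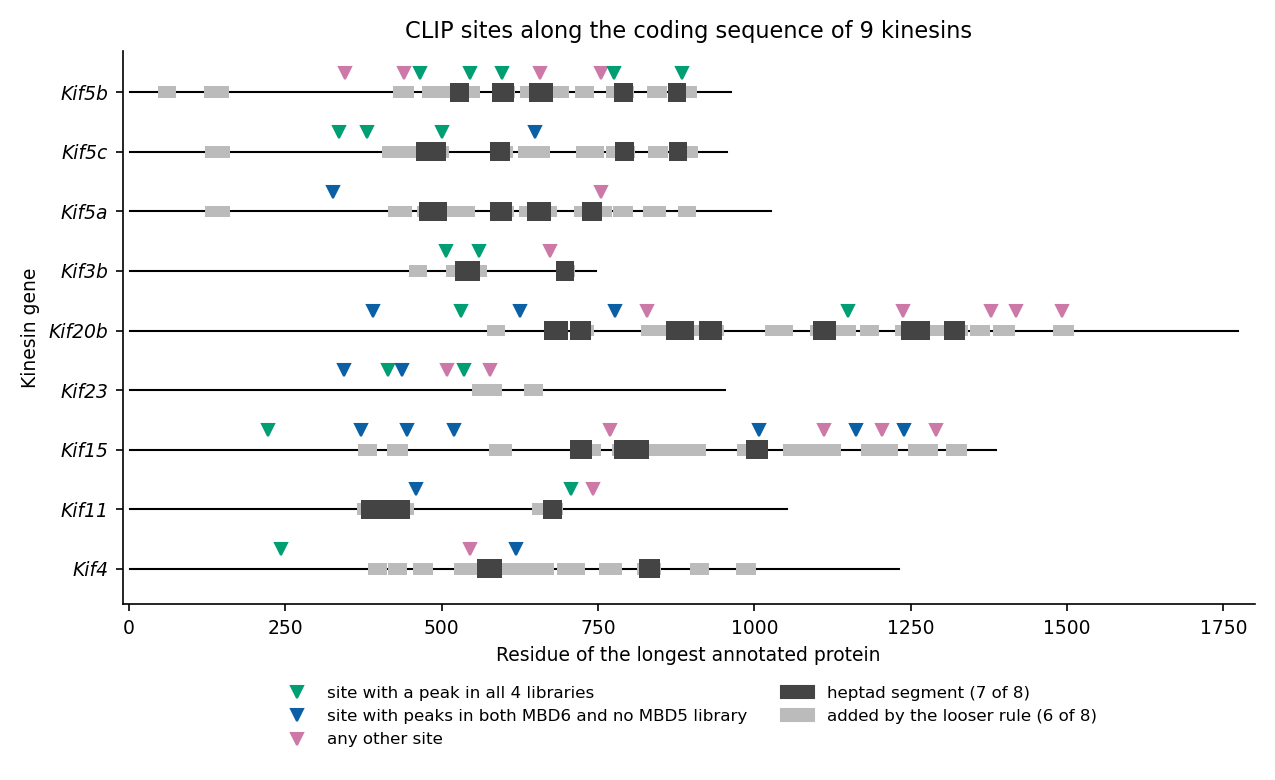
Each horizontal line is the longest annotated protein of a kinesin gene (vertical axis) along its residues (horizontal axis), with heptad segments as dark boxes, segments added by the looser rule in grey and CLIP sites as triangles coloured by the libraries that hold a peak. Kif5b sites lie from residue 346 on, 6 of 9 of them in boxes of either rule, while 1 of the 6 sites of Kif23 lies in a box.

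**Figure D5:**
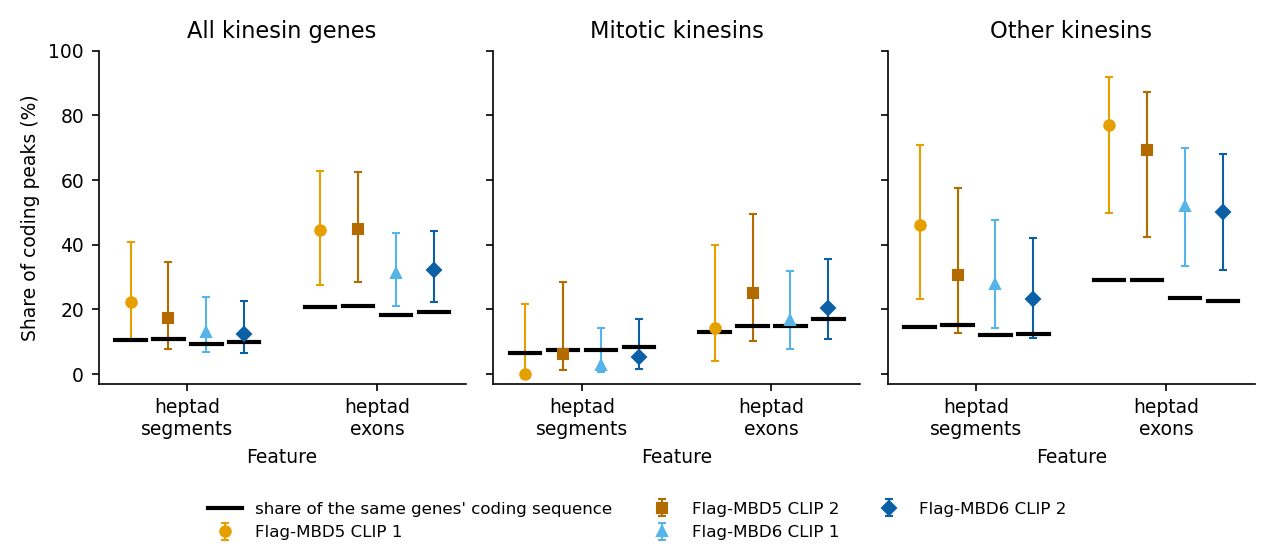
Points give the share of coding peaks (vertical axis, %) that start in heptad segments or heptad exons (horizontal axis) for the 4 libraries, with 95% Wilson intervals, and black bars give the share of the same genes' coding sequence in these features. For heptad exons the points of the other kinesins (50.0% to 76.9%) lie above the bars (22.5% to 29.2%), and the intervals of the mitotic kinesins include theirs. Peaks of the same gene are not independent, and the intervals do not allow for this.

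On average, the starts of the peaks were rich in A and poor in T. The first 30 nt of kinesin coding peaks held 44.0%, 44.9%, 43.9% and 42.9% A in the 4 libraries, against 32.9% to 33.2% in the whole coding sequence of the same genes. T made up 12.2%, 13.6%, 14.2% and 14.6% of them against 21.1% to 21.5%. In-frame glutamate or lysine codons, the letters in capitals above, made up 33.2%, 32.0%, 32.7% and 31.8% of codons against 19.7% to 20.4%. Coding peaks of all genes held 37.6% to 38.8% A and 27.7% to 29.2% such codons, and were not compared with the whole coding sequence of their genes.

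Heptad segments of the 39 kinesins themselves held 32.7% A and 24.4% glutamate or lysine codons, and the sequence outside them 27.9% and 15.9%. The peaks had higher values than these segments on both measures, but the gene sets differ. The segments were pooled over all 39 genes, while the peaks came from the bound genes only. The whole coding sequence of the bound genes, weighted by peaks, already held 32.9% to 33.2% A. Peaks were not compared with the heptad segments of the bound genes alone. The mitotic kinesins, whose sites were near an even spread over heptad exons, had 43.1%, 42.5%, 43.3% and 41.0% A in their peaks, and the other kinesins 44.9%, 48.1%, 44.8% and 45.8%. Composition and heptad content both differed from the rest of the same genes' sequence at the sites of the other kinesins, and the part of each was not tested.

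Since reads with up to 10 places in the genome were kept, the 68 starts were searched in the transcripts of other genes with up to 3 mismatches. A match was found for 6 of them: Kif11 sites 3 and 4 (Gm15697), Kif22 sites 1 and 2 (the pseudogene Kif22-ps), Kif2c site 1 (Gm11853) and Kif5b site 1 (Klhl33). Reads at these sites may be shared with the copy. No searched site of a kinesin-1 gene matched another kinesin-1 gene, while Kif5a site 1 and Kif5b site 2, whose starts cross an exon border, were not searched.

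The 5 kinesins that the name rule leaves out included Cenpe, the kinetochore motor, with 12, 15, 16 and 16 peaks, more than any of the 39 members. Kifc1 and Kifc5b, which are minus-end motors, had MBD6 regions only, and Kifc2 and Kifc3 had no peak. In the MBD5 libraries Kifc1 still had 0 and 2 peaks and Kifc5b 1 and 0. Starts of peaks in these genes were not searched in other transcripts. Of the 4 kinesin light chains, the cargo-binding partners of Kif5, only Klc1 had peaks, with 2, 2, 4 and 4. Of 7 cargo adaptors, 1 had an MBD5 region (Trak1) and 3 an MBD6 region (Trak1, Mapk8ip3 and Kifap3). All 12 spindle and midzone partners had an MBD6 region and 10 had an MBD5 region, among them Incenp with 5, 6, 6 and 6 peaks, Anln with 4, 4, 8 and 8 and the dynein heavy chain Dync1h1 with 20, 20, 21 and 24. Over all protein-coding genes, 7.8% had an MBD5 region and 13.8% an MBD6 region, and the lists were not matched to other genes by coding length. These lists were short and were chosen with earlier results known, so no more than their counts is given.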

How the data were processed

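Per the study's methods, the authors collapsed identical reads, removed ribosomal reads, aligned the rest to mm10 with Bowtie 1.0.0 without splicing (3 mismatches, up to 10 places per read), split them by strand, extended them to 150 bp and called peaks with MACS2 (q under 0.01, up to 5 duplicates, genome size 130000000 bp). For the antibody, the methods and the sample characteristics give Flag, but the labels' extraction protocol gives MBD6. Each deposited peak has a score, which is 10 times its −log10 q, as well as −log10 p and −log10 q values and a summit position. It also has a fold enrichment, the ratio of summit reads to the local background after the same constant is added to both.

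For each peak, summit reads and local background were computed as the whole number and Poisson rate that yield its deposited ratio and p-value (all peaks solved, relative tolerance 5e-05). The lowest rate per strand gave the library's reads. Regions were overlaps of 1 bp or more between both libraries of a protein. Python 3.11.15, numpy 2.4.6, scipy 1.17.1 and numba 0.67.0 were used, and the steps were tested on simulated data. Intervals are 95% Wilson intervals or, for ratios, Poisson counting intervals. No tests were made, since each protein counted as 1 sample.

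The members and lists were chosen with earlier results of these data known. Named by rule were all members, the 10 sites with peaks in all 4 libraries and the most reads, and, per protein, the 3 regions without a peak of the other protein that had the highest fold enrichment, of which MBD5 had 0. Full sequences were limited to 30 nt of these sites, and some are not reported here. Cenpe, Klc1, the adaptors and the partners named were chosen after their values were seen, and so were the heptad exons, the stretches of coding sequence, the composition and the search for similar transcripts. Other alternatives covered the q and fold thresholds, equal peak numbers, overlap, strand, the position used, the heptad rule, the mitotic class and each library left out. The 4 inputs were not used, and protein and genome sequences were not used here.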

Additional observations from a re-analysis of the deposited data

Results flagged for a closer look

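A peak on the strand opposite Kif18a, in an intron of that gene, lay outside the comparisons of the report, which used the strand of the gene, and entered only the count on either strand. It had the same bounds in all 4 libraries, chr2:109323365-109323529 on the minus strand of mm10, with 20 and 18 summit reads in the MBD5 libraries and 25 and 26 in the MBD6 libraries. Its fold enrichment was 15.1, 15.0, 17.1 and 17.0 in the same order, and the annotation used here gives no gene on that strand there. It was the only opposite-strand peak in any of the 39 kinesin genes. Kif18a itself, on the plus strand, had 10, 14 and 13 reads in the 3 libraries with a peak.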

How the results depend on the processing

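Of 103 comparisons of a result with another setting, apart from leaving out a library, 93 stayed within 1.5 times the count or within the counting interval and 10 moved. With the best 5362 peaks of every library, MBD6 kept 37 kinesin peaks per library in place of 66, 5 other kinesin genes with a region in place of 9 and a coding share of 100% in place of 97.8%, and the MBD6 over MBD5 ratio fell from 2.36 to 1.32. At the peak midpoint the coding share was 60.9% for MBD5 and 65.2% for MBD6. The looser heptad rule raised the share of peaks in heptad segments from 19.7% to 49.9% for MBD5 and from 12.7% to 42.8% for MBD6, and counting whole exons, added after the data were seen, gave 44.6% and 31.7%. Leaving out Kif5b, also added later, gave 11.8% and 9.27%, a fall of over 1.5 times for MBD5. The stricter q and the fold minimum removed no kinesin peak. With each library left out in turn, kinesin peaks ranged from 27 to 29 (MBD5) and 63 to 69 (MBD6), genes with a region from 11 to 13 and 18 to 22, mitotic genes from 8 to 10 and 9 to 11, other genes from 3 to 4 and 9 to 11, coding shares from 100% to 100% and 97.1% to 98.4%, heptad shares from 17.2% to 22.2% and 12.3% to 13.1%, and the ratio from 2.25 to 2.46. With 1 library left, a region is any peak of that library. No paired analysis was possible because no result comes from a test. Depth and protein cannot be told apart, and the part of transcript abundance was not tested.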

Other observations

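The first site of each kinesin-1 gene lay in exon 11, at codon 346 in Kif5b, codon 336 in Kif5c and codon 327 in Kif5a, whose longest transcripts have 26, 26 and 29 exons. Exon 14 held Kif5b site 3 and Kif5c site 3, exon 17 held Kif5b site 6 and Kif5c site 4, and exon 20 held Kif5b site 7 and Kif5a site 2. The codons were not aligned between the proteins. Peaks at the first site were listed in 3 libraries for Kif5b (14, 22 and 22 reads), in all 4 for Kif5c (13, 8, 31 and 23 reads) and in both MBD6 libraries for Kif5a (19 and 15 reads). These positions were noticed in the data, and no test was made of them.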
